A study of Mus musculus with 2 samples.

Results

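Fc receptors are the proteins by which immune cells bind antibody, and the 9 genes described here are Fcgr1, Fcgr3 and Fcgr4, activating receptors for IgG, Fcgr2b, the inhibitory receptor for IgG, Fcer2a, the low-affinity receptor for IgE (CD23), Fcrla, an Fc receptor-like protein kept inside B cells, Fcgrt, the neonatal Fc receptor FcRn, and the signalling adaptors Fcer1g (the FcR gamma chain) and Tyrobp (DAP12). They were chosen by name, as Fc receptors of the mouse and ITAM adaptors, with earlier results of these data known. They were found through the RefSeq accession of each probe. All 9 of 9 were matched, each by 1 probe, among 20651 genes matched on the array, and all 9 were well above background on both arrays.

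RNA was measured on 1-colour (Cy3) mouse gene expression arrays, 1 for each of 2 genotypes, in cultures whose cell type label is Th9, the IL-9-producing helper T cell. The wild-type sample came from wild-type mice. The other came from SIRT1flox/flox-CD4-Cre mice, in which a Cre recombinase driven by Cd4 acts on floxed alleles of Sirt1, an NAD-dependent deacetylase, so that cells outside the T lineage would keep the gene, and its array is called the array labelled knockout here. Per the labels, both cultures began with naive CD4 T cells sorted by flow cytometry from lymph nodes and spleen, stimulated by antibodies to CD3 and CD28 (2 µg/ml of each) beside human IL-2 at 100 U/ml, and polarised by IL-4 at 10 ng/ml and TGFβ1 at 2 ng/ml over 5 days (5 to 6 in the protocol). The number of mice behind each culture, their age and any pooling are not stated in the labels. With 1 array per genotype no test was possible, none of the differences could be checked against replicates, and every direction is that of the array labelled knockout minus the wild-type array.

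An activating Fc receptor holds antibody outside the cell and depends on an adaptor inside the membrane, the FcR gamma chain, whose immunoreceptor tyrosine-based activation motif (ITAM) is phosphorylated by SRC-family kinases and then recruits the kinase SYK. DAP12 carries the same kind of motif and serves NK cell receptors, TREM proteins and other myeloid receptors. Fcgr2b carries the opposing inhibitory motif (ITIM), which recruits the phosphatase SHIP1. These genes are known from macrophages, neutrophils, mast cells, NK cells and B cells, and resting or activated helper T cells are not known as a main source of most of them.

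Both arrays were read in 1 scan. The signals below are the scanner software's background-subtracted intensities, and differences were taken after each was divided by its array's 75th percentile, which was 544 for wild-type and 520.0 for the other. The dimmest spots called well above background had 24.6 and 9.60. The Sirt1 probe gave 3240 and 2920, a difference of -0.08 ± 0.20 (log2, scanner error), and since the sources used here name neither the deleted exons nor the place of the probe, it does not check the label. Neither array gave an Il9 signal well above background. All 11 T cell markers were well above background on both arrays, and so were 13 of 15 matched markers of macrophages and monocytes and all 12 of B cells.

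The promoters of the receptor genes show how alike and how different the control regions of these genes are, and are given here for the 4 members that hold a GAGGAA match near the start of transcription and for Fcgr2b and Fcer1g, which do not. GAGGAA, read on the opposite strand as TTCCTC, is a form of the site that PU.1 and related ETS factors are known to bind in many myeloid and B cell promoters. The shorter GGAA within it also stands in the windows of Fcgr2b and Fcer1g, and was not counted. Each line holds the 100 bases before the start, 5′ to 3′ on the strand of the gene, from RefSeq (GRCm38.p6), and capitals mark the match.

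Fcgr1, chr3:96293970-96294069, minus strand: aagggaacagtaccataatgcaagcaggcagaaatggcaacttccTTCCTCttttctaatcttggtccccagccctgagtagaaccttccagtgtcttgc
Fcgr3, chr1:171059404-171059503, minus strand: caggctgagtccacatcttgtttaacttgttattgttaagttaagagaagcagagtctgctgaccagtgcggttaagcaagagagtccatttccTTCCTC
Fcgr4, chr1:171018826-171018925, plus strand: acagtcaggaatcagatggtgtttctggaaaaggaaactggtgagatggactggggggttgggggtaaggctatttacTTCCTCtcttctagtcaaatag
Fcrla, chr1:170927584-170927683, minus strand: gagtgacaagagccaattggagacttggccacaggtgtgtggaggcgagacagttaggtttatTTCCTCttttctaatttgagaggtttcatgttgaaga
Fcgr2b, chr1:170976072-170976171, minus strand: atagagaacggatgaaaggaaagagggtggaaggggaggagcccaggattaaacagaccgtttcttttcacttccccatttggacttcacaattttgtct
Fcer1g, chr1:171234350-171234449, minus strand: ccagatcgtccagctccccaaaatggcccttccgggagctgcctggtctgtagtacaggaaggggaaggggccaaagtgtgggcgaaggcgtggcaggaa

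Windows of 300 bases (250 before the start and 50 after it) were found for 8 of the 9 members, all but Tyrobp. Of these 8, 4 held GAGGAA on either strand, where 28.3% of all 32851 windows of that length did. Within the 100 bases shown, the same 4 held it, where 9.82% of windows did. The longest stretch that any 2 of the 100-base windows share is TTCCTCTTTTCTAAT, of 15 bases, which begins 55 bases before the start of Fcgr1 and 37 before that of Fcrla. Chosen from these sequences and then counted on either strand, it stands in 3 of the 32851 windows of 300 bases, the other being that of Krt14. Of the 4 members that hold GAGGAA, Fcgr1 and Fcgr4 were higher and Fcgr3 and Fcrla lower on the array labelled knockout. A link between the match and the signal was not tested. No binding was measured, and the matches are a description of letters.

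The 9 genes went both ways. Both adaptors and the activating receptors Fcgr1 and Fcgr4 were higher on the array labelled knockout, by 1.80-fold to 2.86-fold, whereas Fcgr3, the inhibitory Fcgr2b and the B cell genes Fcer2a and Fcrla were lower, by 1.34-fold to 1.76-fold. Fcgrt lay within its scanner error. Only 1 of the 9, Fcgr4, was at least 2-fold higher, against 3.95% of the 12958 genes measured well above background on each array, and 0 were at least 2-fold lower, where 3.63% were. At 1.5-fold, 4 of the 9 were higher (11.0% of all genes) and 2 lower (12.0%), 6 of the 9 in either direction where 22.9% of all genes were. The median over the 9 was 0.20 on the log2 scale beside 0.0031 over all these genes, and the members spread to both sides of it. This median is the value of Fcgrt, so it shows no shift of the 9 as a set. In bulk RNA, fewer cells of a type and less RNA per cell cannot be told apart. Among all genes past 2-fold, 52.1% were higher on the array labelled knockout. That share was 73.3% with each array centred on its median, which moved the median of all genes up by 0.19, 63.8% with quantile normalization, 63.9% in the authors' deposited table and 14.9% with the normexp background correction.

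**Figure D1:**
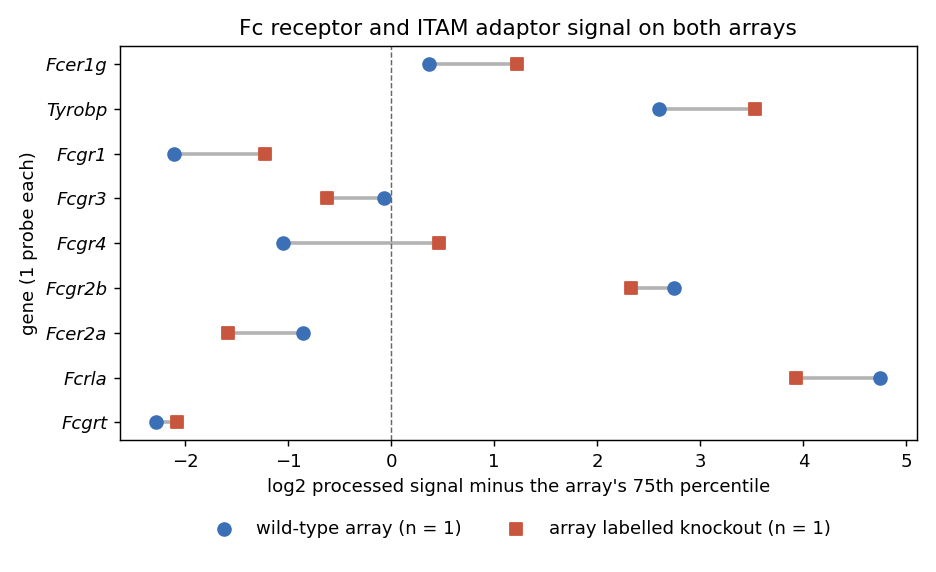
Scaled log2 signal of the 9 genes (processed signal relative to the array's 75th percentile, the dashed line at 0) on the wild-type array (circles) and the array labelled knockout (squares), 1 probe and 1 array each, joined by grey lines. Fcer1g, Tyrobp, Fcgr1 and Fcgr4 lie further right on the array labelled knockout and Fcgr3, Fcgr2b, Fcer2a and Fcrla further left. Positions of different genes are not comparable, since probes differ in brightness.

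The adaptors moved by nearly the same ratio. Fcer1g, the gamma chain that the activating IgG receptors and the high-affinity IgE receptor need for assembly and signalling, gave 703 in wild-type and 1210 in the sample labelled knockout. That is a difference of 0.85 ± 0.20 (log2, scanner error), or 1.80-fold, and 5.75% of all measured genes were at least as far in this direction. Tyrobp, the DAP12 adaptor of NK and myeloid receptors, gave 3290 and 5990, a difference of 0.93 ± 0.20, or 1.90-fold. In this direction 4.68% of all genes went as far, and 1.67% of the 2281 genes whose mean signal was within 2-fold of that of Tyrobp. This share among genes of near signal was chosen after the data were seen. It was larger than the share of all genes for Fcgr1 (8.17% against 5.16%), Fcgr4 (1.16% against 0.872%) and Fcgrt (34.4% against 31.1%), and smaller for the other members. Both adaptors were higher on the array labelled knockout by more than 4 times their scanner error. Over the 12 settings tried, Fcer1g lay between 0.85 and 1.03 and Tyrobp between 0.90 and 1.23.

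The activating receptors did not move together, although all of them use the gamma chain. Fcgr4, the mouse receptor for IgG2a and IgG2b found on monocytes, macrophages and neutrophils, gave 263 in wild-type and 718 in the sample labelled knockout. Its difference of 1.51 ± 0.21 (2.86-fold) was the largest of the 9, and 0.872% of all genes were at least as far in this direction. Fcgr1, the high-affinity IgG receptor CD64 that marks macrophages and monocytes, gave 126 and 223, a difference of 0.89 ± 0.21 (1.85-fold). Fcgr3, the low-affinity receptor CD16 of NK cells, neutrophils, mast cells and macrophages, went the other way with 519 and 337, a difference of -0.56 ± 0.20 (1.47-fold lower). Fcgr1 was dim, at 5.12 times the lowest signal well above background on the wild-type array, and its difference was 0.17 with normexp, while Fcgr4 gave 1.09 and Fcgr3 -0.55 with that correction. Fcgr2b, Fcgr3 and Fcgr4 are similar in sequence, and the sources used here do not place these probes, so binding of a transcript to the probe of another was not tested.

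Fcgr2b, the inhibitory receptor CD32B that dampens B cells, macrophages and mast cells, was lower on the array labelled knockout by a small and tightly measured amount. Its probe was spotted 10 times. On the wild-type array the 10 spots ran from 3570 through a median of 3640 to 3730, and on the array labelled knockout the 9 spots without an outlier flag ran from 2530 through 2610 to 2660. The spots of the arrays did not overlap, with a coefficient of variation of 1.31% and 1.58% between spots. Tight spots were common: over probes spotted at least 10 times, the median coefficient was 2.58% (258 probes, wild-type) and 2.33% (288 probes, labelled knockout). How many of those probes also had spots without overlap was not counted. The difference was -0.42 ± 0.20 with the scanner error (1.34-fold lower), and 18.4% of all genes were at least as low. The spots measure the same labelled RNA again and are no replicates of the genotype, and the normexp difference was -0.16. The scanner error of about 10.0% per spot is wider than this spread between spots, and neither covers the spread between cultures. The accession of the probe is that of 1 of 2 RefSeq transcripts of Fcgr2b in the table used, and isoforms could not be told apart.

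**Figure D2:**
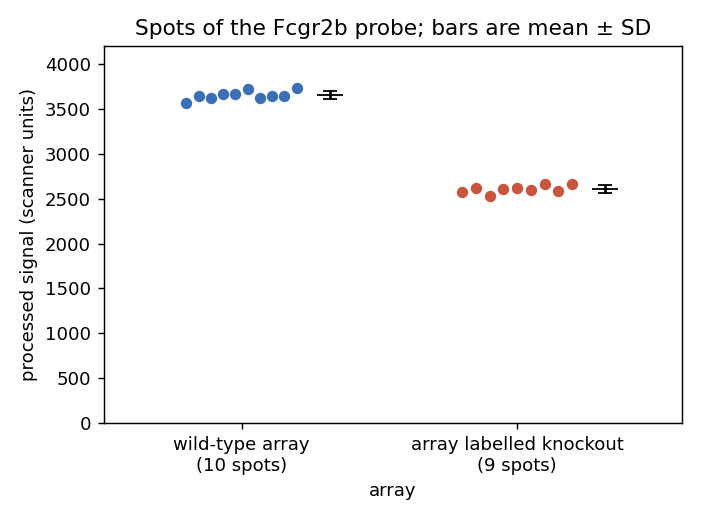
Processed signal (scanner units, axis from 0) of each spot of the Fcgr2b probe on the wild-type array (10 spots) and the array labelled knockout (9 spots without an outlier flag). Black bars give the mean ± SD over spots, 3652 ± 47.8 and 2607 ± 41.2, and the spots of the arrays do not overlap. The share of other repeated probes without overlap was not counted.

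The B cell members were both lower. Fcer2a encodes CD23, the low-affinity IgE receptor of mature B cells and the only receptor here built from a C-type lectin fold. It gave 301 in wild-type and 174 in the sample labelled knockout, a difference of -0.73 ± 0.21 (1.65-fold lower), and 8.06% of all genes were as low. Fcrla, a receptor-like protein of B cells, gave 14600 and 7940, a difference of -0.81 ± 0.20 (1.76-fold lower). It lay at 593 and 827 times the lowest signal well above background. Of all genes 6.36% were as low as Fcrla, and of the 1082 genes within 2-fold of its mean signal 1.20% were. With normexp Fcer2a kept -0.68, and Fcrla gave -0.46.

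Fcgrt was, at the main setting, the only member without a difference beyond its scanner error. FcRn, its product, carries IgG back out of endosomes in endothelium and macrophages and pairs with the light chain B2m. Its signals were 112 and 123, a difference of 0.20 ± 0.22, and 31.1% of all genes were at least as far in this direction. It lay at 4.55 times the lowest signal well above background on the wild-type array, the nearest of the 9 to it, and with normexp its sign turned (-0.42). B2m gave 73000 and 76000, a difference of 0.12.

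**Figure D3:**
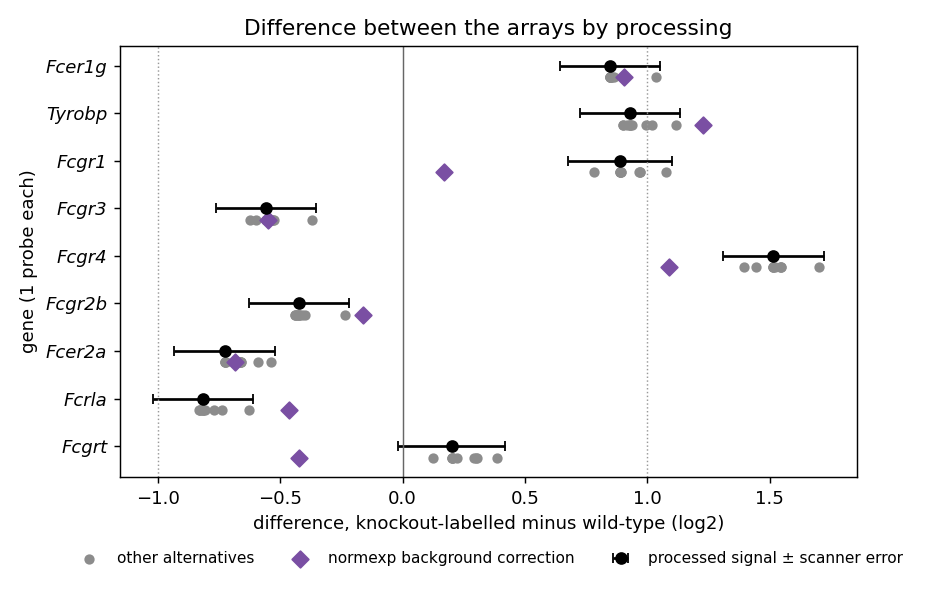
Difference between the arrays in log2 units (knockout-labelled minus wild-type) for the 9 genes. Black points with bars give the difference in scaled processed signal ± scanner error, purple diamonds the normexp background correction and grey points the other alternatives, with dotted lines at 2-fold. Apart from Fcgrt with normexp, every point of a gene lies on the same side of 0, and Fcgr4 passes 2-fold in each setting.

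In all 12 settings, of which 3 cannot move a gene with 1 probe and no dim array (other filters and the mean over probes), Fcgr1, Fcgr4, Fcer1g and Tyrobp were higher and Fcgr2b, Fcgr3, Fcer2a and Fcrla lower on the array labelled knockout. In the authors' deposited table, whose normalization is unknown here, Fcgr4 had a difference of 1.55, Tyrobp of 0.90, Fcer1g of 0.85, Fcer2a of -0.66 and Fcrla of -0.83. The set past 2-fold was less stable. With each array centred on its median Fcgr1 (1.08), Fcer1g (1.03) and Tyrobp (1.12) joined Fcgr4 (1.70), and with normexp Tyrobp did.

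**Figure D4:**
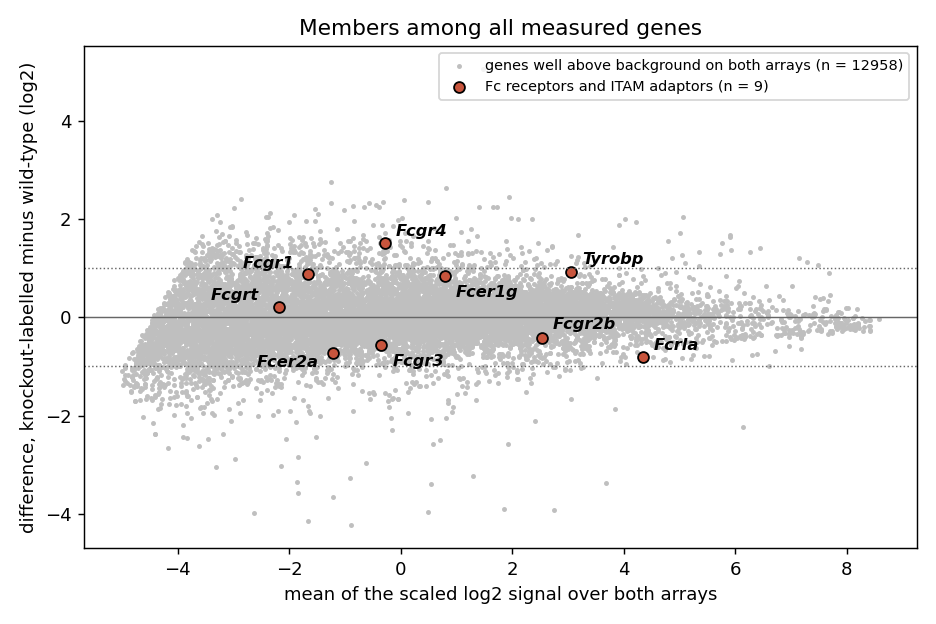
Difference between the arrays (log2, knockout-labelled minus wild-type) against the mean scaled log2 signal for the 12958 genes well above background on both arrays (grey) and the 9 members (red). Dotted lines mark 2-fold; Fcgr4 lies above them and the other members between them.

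Of the members, 5 lie in 1 stretch of chromosome 1, and neighbours there differed in opposite directions. In the order of the GRCm38.p6 table, Fcrlb is followed by Fcrla, Fcgr2b, Fcgr4, Fcgr3 and, after several unrelated genes, Fcer1g. Fcgr4, with 1.51, stands between Fcgr2b with -0.42 and Fcgr3 with -0.56. Fcrlb, a relative of Fcrla, gave 40.8 on both arrays, a difference of 0.07 ± 0.28. Of the 14 protein-coding genes of the stretch, 11 were well above background on both arrays, and of the 6 that are not members 2 passed 2-fold. These were Nr1i3, a nuclear receptor, with 1.13, and Apoa2, an apolipoprotein known from the liver, with signals of 7600 and 483 and a difference of -3.91. Both were named after their values were seen.

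Other Fc receptors and Fc-binding proteins went both ways as well. Fcer1a, the ligand-binding chain of the high-affinity IgE receptor on mast cells and basophils, gave 55.2 and 148, a difference of 1.49 ± 0.25 (2.80-fold higher) that was 0.03 with normexp. Neither array gave a signal well above background for its partner chain Ms4a2. Of 13 genes on the list, 8 were well above background on each array, with a median of -0.07. Of these 8, only Fcer1a passed 2-fold. The B cell genes Fcrl1 (4010 and 2900, -0.40), Fcrl5 (1600 and 1230, -0.31) and Fcmr, the IgM receptor (7310 and 5340, -0.39), had differences near that of Fcgr2b. These 3 were chosen after their values were seen.

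Receptors that signal through the FcR gamma chain or DAP12 divided differently with the background correction. Of 20 genes on the array, 17 were well above background on both, 13 of them higher and 4 lower, against 50.4% higher and 49.6% lower among all genes, and with normexp 9 were higher and 8 lower. At least 2-fold higher were 2, Clec4n (dectin-2, a fungal mannan receptor) with 1250 and 2400, a difference of 1.01 ± 0.20, and Clec5a, a DAP12-coupled lectin of myeloid cells, with 58.9 and 128, a difference of 1.18 ± 0.24 that turned to -0.10 with normexp. None of the 17 was at least 2-fold lower as reported, and 1 was with normexp, while 6 were at least 2-fold higher with each array centred on its median. The median was 0.64, beside 0.38 with the mean over probes and 0.17 with normexp. Trem1, a DAP12-coupled receptor of neutrophils and monocytes, went the other way with 1980 and 1320, a difference of -0.52, and was chosen after its values were seen.

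Adaptors with ITAMs that belong to T and B cells were mostly lower at the main setting. Of the 7 genes, which include Hcst (DAP10, whose motif binds PI3 kinase and is no ITAM), 6 were lower and 1 higher, 2 of them 2-fold or more, and the median was -0.71, which was -0.31 with normexp. Cd79a, the Igα chain of the B cell receptor, gave 240.0 and 101, a difference of -1.18 ± 0.21, and Cd3e, of the T cell receptor complex, 2330 and 1020, a difference of -1.13 ± 0.20. With each array centred on its median, 0 of the 7 passed 2-fold. With that centring 3 were higher and 4 lower, and the same counts held with normexp. At the main setting 2 of the 7 lay within their scanner error.

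Downstream of the ITAM no gene well above background on both arrays passed 2-fold at the main setting. Among kinases and signalling proteins 24 of 27 were well above background on both arrays, 16 higher and 8 lower (13 and 11 with the mean over probes), with a median of 0.17. None of the 24 was 2-fold higher, where 3.95% of all genes were, or 2-fold lower, where 3.63% were. With normexp 1 was at least 2-fold higher and 2 lower, and with each array centred on its median 1 was higher. Syk, the kinase that binds the phosphorylated ITAM, gave 11900 and 14200, a difference of 0.32 ± 0.20. The largest differences were those of Pik3r1, a regulatory subunit of PI3 kinase (-0.95 ± 0.21), and Lat, the scaffold of T cells and mast cells (0.92 ± 0.20). Of the SRC-family kinases, the myeloid kinase Fgr gave 0.57 and Lyn, which B cells also use, -0.61 (both chosen after their values were seen). Inhibitors of ITAM signalling had 8 of 17 higher and 9 lower, 0 past 2-fold, and a median of -0.12 that turned to 0.19 with normexp. Cbl, a ubiquitin ligase, had -0.60 ± 0.20 and Inppl1 (SHIP2) 0.57 ± 0.20, while Inpp5d (SHIP1), which Fcgr2b recruits, had -0.38 (named for that role). Pag1, an adaptor that recruits the kinase CSK, was well above background on the wild-type array only, with signals of 28.6 and 7.51. By its bound it was at least 2.85-fold lower on the array labelled knockout. Its wild-type signal was near the lowest called well above background there (24.6), and its difference ran from -1.88 to -0.77 over the settings.

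Markers of the cell types that carry these receptors differed between the arrays too. Per the labels the cultures began with sorted naive CD4 T cells, a sort that would remove these other cell types. Their markers gave signal and Il9 gave none well above background. Sirt1 hardly differed, but as stated above its probe does not check the label. Whether the arrays hold the labelled cultures was not tested. All 13 macrophage and monocyte markers measured on both arrays were higher on the array labelled knockout, 6 of them 2-fold or more (3.95% of all genes). The median was 0.90 (0.75 with the mean over probes), and 1 of the 13, C1qa, lay within its scanner error. Their summed signal went from 31.0 to 59.8 times the 75th percentile, to which Csf1r, with signals of 6580 and 11700, gave the most. With normexp 9 were higher and 4 lower (Cd14, Mertk, C1qa and C1qb). Other probes of Csf1r, the CSF1 receptor, gave -0.57 to -0.14, where the brightest gave 0.90, which is also the list median. For Itgam the brightest probe gave 0.87 and another 0.0035. Cx3cr1, a chemokine receptor of monocytes, was 2.84-fold higher and Mrc1, the mannose receptor, 2.62-fold. Cd163 was well above background on neither array and Spi1 on the array labelled knockout only, with signals of 9.36 and 27.6. The dimmest spots so called had 24.6 in wild-type and 9.60 on the other array. By its bound Spi1 was at least 1.17-fold higher, and its normexp difference was -0.84. Among all genes, 1768 passed this call in the sample labelled knockout alone and 143 in wild-type alone. Of the 12 B cell markers, 11 were lower, but 6 of the 12 lay within their scanner error, and 6 were higher and 6 lower with normexp as well as with each array centred on its median. At least 2-fold lower were 2 (1 with the centring), Blk with -1.41 and Cd79a, which is also among the adaptors. The median was -0.17, which was 0.02 with the centring, and the summed signal 302 and 268. Mast cell and basophil markers had 6 of 8 higher, 3 by at least 2-fold, a median of 0.73 (-0.06 with normexp, where 4 of 8 were higher, 1 by at least 2-fold, and 2 at least 2-fold lower) and sums of 3.15 and 5.86, with Cpa3, a mast cell protease, at 1.72. NK cell markers had 7 of 8 higher (5 with normexp), 1 by at least 2-fold (Klra1 with 1.56), a median of 0.52 and sums of 31.8 and 68.3, to which Klra1, with signals of 8790 and 24700, gave the most. The part of any of them in the differences of the 9 genes was not tested.

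The other marker lists were less uniform. Dendritic cell markers had 7 of 10 higher, 1 by at least 2-fold (Cd209a with 1.51), and a median of 0.28. With normexp 6 were higher and 0 passed 2-fold (Cd209a with 0.95). Their sums were 147 and 140.3, of which Siglech, with signals of 74900 and 67500, made up most. Its brightest probe gave -0.08 and its other probe 0.51. Neutrophil markers had 7 of 10 higher, 0 past 2-fold, a median of 0.13 and sums of 403 and 401, with Ngp at -0.93 and Cxcr2 at 0.68 (-0.67 with normexp) furthest from 0. Endothelial markers had 4 of 6 higher, 3 by at least 2-fold, a median of 0.96 (0.56 with the mean over probes) and sums of 5.78 and 11.0, with the scavenger and hyaluronan receptors Lyve1 at 1.43 and Stab2 at 1.27. The general endothelial markers Pecam1 and Cdh5 gave -0.44 and -0.04, the probes of Kdr disagreed (0.85 and -0.74), and Tek and Tie1 were not well above background on either array. T cell markers had 6 of 11 higher and 5 lower, 1 at least 2-fold lower (Cd3e), a median of 0.04 and sums of 154 and 160.4. With normexp, and with each array centred on its median, 0 of the 11 were at least 2-fold lower and 1 was at least 2-fold higher.

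**Figure D5:**
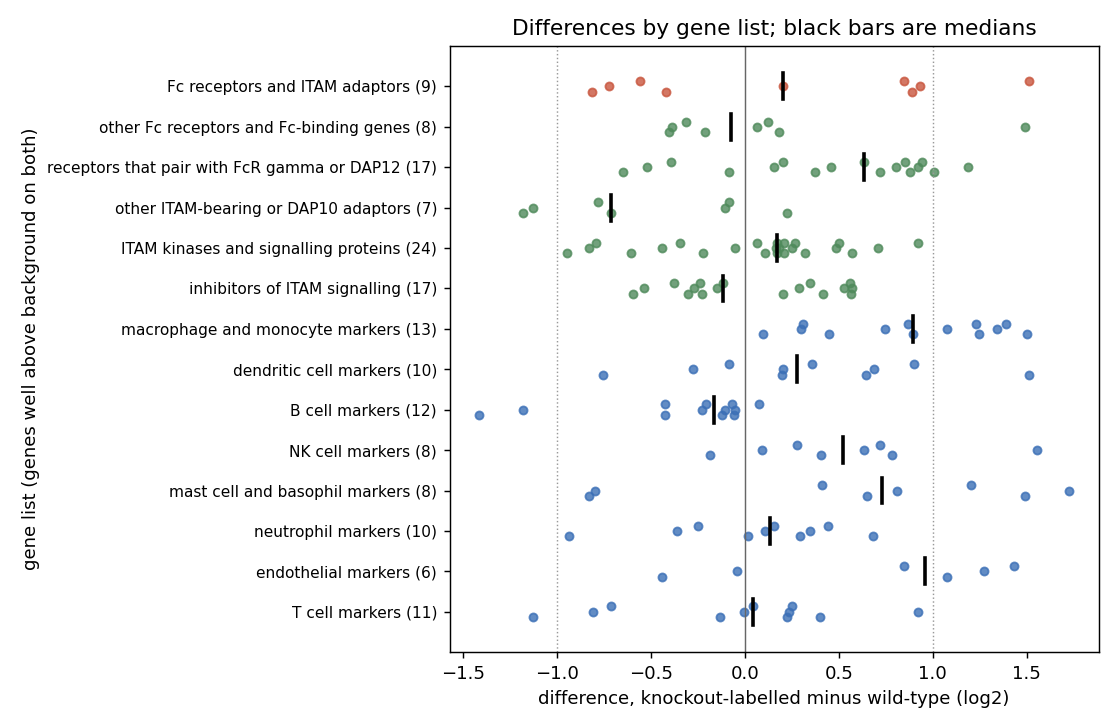
Difference between the arrays (log2, knockout-labelled minus wild-type) of each gene well above background on both arrays, by list, with the number of genes in brackets. Points are genes, black bars list medians and dotted lines 2-fold; red marks the 9 members, green the pathway lists and blue the cell type markers. All 13 macrophage and monocyte markers lie right of 0 (9 with normexp) and 11 of 12 B cell markers left of it (6 with normexp).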

How the data were processed

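Scanning output came from Agilent Feature Extraction, version 11.0.1.1 according to the submitters' processing notes. Each spot has a deposited intensity, background-subtracted inside each array, as the deposited headers say, with an error in the same unit and quality flags. The deposited value table holds log2 values with a median of 5.36 in both columns, and the sources used here do not say how the authors normalized or centred it. Its differences between the columns followed those of the log2 scanner signals (Spearman rho 0.983 across 21863 probes well above background on both arrays, which are not independent replicates), so its direction is the same.

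Control and outlier-flagged spots were dropped, log2 signals of repeated spots were averaged, and the 75th percentile of each array was subtracted. No gene spot was saturated. Of 39411 probes, 27220 matched 1 gene through an unversioned RefSeq accession (GRCm38.p6 table); the headers name another build for the array design, so coordinates are given for the printed RefSeq promoters only. A gene with several probes was represented by the brightest well above background on at least 1 array. Scanner errors of both arrays were combined in quadrature on the log2 scale. A gene was called at 2-fold or more if well above background on both arrays. A gene well above background on 1 array has a bound, the fold of its bright signal over the dim array's detection floor or its own dim signal, whichever is higher. No p-value was computed. The functions were tested on simulated data. Python 3.11.15, pandas 2.3.3, R 4.3.3 and limma 3.58.1 were used.

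The members and lists were chosen with earlier results of these data known. Named genes are all members, up to 4 of each pathway list and up to 2 of each marker list with the largest differences of at least 2-fold, or the 2 largest where none reached it, plus Sirt1 and Il9. Other genes named (among them Syk, Ms4a2, B2m, Fcrlb, Pag1, Cd163, Spi1, Csf1r, Siglech, Pecam1, Cdh5, Kdr, Tek and Tie1) fall outside this rule and were chosen after their values were seen. Alternatives were other scalings (median, quantile, loess), normexp with an offset of 50 on the median intensities, the mean over probes, the deposited table, other filters, and calls at 1.5-fold and at 3-fold. The background-subtracted signal and the median intensity minus local background were added after the data were seen. So was the share among genes within 2-fold of a member's mean signal.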

Additional observations from a re-analysis of the deposited data

How the results depend on the processing

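With 1 array per genotype, no setting adds a replicate, and signal over background limits the dim members most (Fcgrt and Fcgr1). No paired analysis was possible because each genotype had 1 array. Of 99 differences of single members under the alternatives, 93 moved by less than the member's scanner error (27 of them could not move, under other filters or probe averaging) and 6 by more, all 6 with normexp: Fcgr1 0.17, Fcgr2b -0.16, Fcgr4 1.09, Tyrobp 1.23, Fcrla -0.46 and Fcgrt -0.42. The count of members at least 2-fold higher, 1 as reported, was 4 with each array centred on its median, 2 with normexp and 2 with the median pixel intensity minus local background (added after the data were seen). At a threshold of 1.5-fold it was 4, with 2 members lower, and at 3-fold it was 0. The median of the members, 0.20 (the value of Fcgrt), was -0.16 with normexp (the value of Fcgr2b). No member was above background on 1 array only, so setting members at a bound changed nothing. The causes were not tested.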
